A study of Mus musculus with 4 samples.

Results

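The *Usp17l* genes are the mouse members of the USP17 family of ubiquitin-specific proteases. The 5 rows of the count table named *Usp17la*, *Usp17lb*, *Usp17lc*, *Usp17ld* and *Usp17le* were taken by symbol, out of 50559 gene rows. No measured value was used to choose them, and all 5 passed the minimum of a mean of 10 reads over the libraries. Poly(A)+ RNA of E14 mouse embryonic stem cells (ESCs) was sequenced in 4 libraries, 1 for each of 4 groups. The shScram+EV cells carried a scrambled hairpin and an empty vector, and the shYthdf2+EV cells a hairpin against *Ythdf2* and the empty vector. The shYthdf2+DF2WT cells carried that knockdown with wild-type YTHDF2 added back, and the shYthdf2+DF2Mut cells the same with a YTHDF2 whose m6A-binding site was mutated. Per the study's methods, the stable lentiviral knockdown cells had a transgene in which the *Mervl* promoter drives tdTomato, and 2 hairpins against *Ythdf2* were made. The labels do not say which hairpin was used here or whether a library came from 1 clone or a pool. All cells were grown on gelatin in serum replacement with LIF. The question is how the *Usp17l* transcripts respond to loss of *Ythdf2*, and to each form of YTHDF2 added back.

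Deubiquitinases remove ubiquitin from proteins and can so spare them from degradation or alter their signalling. The USP17 enzymes are cysteine proteases encoded by short genes in tandem repeats, and the first members were described as early genes induced by interleukins in blood cells. In cultured ESCs, *Usp17l* genes belong to the transcripts of the 2C-like state, a rare state in which genes of the 2-cell embryo, such as *Zscan4* and the *Mervl* repeats, are switched on. YTHDF2 is a cytoplasmic protein that binds N6-methyladenosine (m6A) in RNA and promotes the decay of bound transcripts.

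In the mm39 coordinates of the table, all 5 genes lie on chromosome 7, in 2 groups. *Usp17ld* (102899293 to 102901712, minus strand) and *Usp17lc* (103065903 to 103068381, plus strand) span 169 kb. *Usp17le* (104417168 to 104426677, minus strand), *Usp17lb* (104489464 to 104491790, minus strand) and *Usp17la* (104506223 to 104511874, plus strand) span 94.7 kb, and 1349 kb lie between the groups. Their summed exon lengths were 2649 bases for *Usp17la*, 1541 for *Usp17lb*, 1697 for *Usp17lc*, 1638 for *Usp17ld* and 2067 for *Usp17le*.

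The sequences upstream of the genes are shown because the 5 genes moved together. RefSeq promoters of GRCm38.p6, from 250 bases before to 50 bases after the gene start, were matched by symbol for 4 of the 5 genes and not for *Usp17le*. Over these windows, aligned pairs were between 89.5% and 96.8% identical, with a median of 92.8% over 6 pairs. The last 160 bases before the gene start are printed 5′ to 3′ on the gene's own strand, with ATTGG, which reads as CCAAT on the opposite strand, and TATAAA or TTTAAA in capitals. They lie at chr7:104856856-104857015, plus strand, for *Usp17la*, chr7:104842584-104842743, minus strand, for *Usp17lb*, chr7:103416536-103416695, plus strand, for *Usp17lc* and chr7:103252506-103252665, minus strand, for *Usp17ld*.
Usp17la: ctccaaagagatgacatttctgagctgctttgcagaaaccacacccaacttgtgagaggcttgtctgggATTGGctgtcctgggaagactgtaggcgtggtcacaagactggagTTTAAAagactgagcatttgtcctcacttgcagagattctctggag
Usp17lb: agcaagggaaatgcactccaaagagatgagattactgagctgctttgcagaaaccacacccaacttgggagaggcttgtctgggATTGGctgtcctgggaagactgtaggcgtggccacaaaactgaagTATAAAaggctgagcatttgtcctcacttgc
Usp17lc: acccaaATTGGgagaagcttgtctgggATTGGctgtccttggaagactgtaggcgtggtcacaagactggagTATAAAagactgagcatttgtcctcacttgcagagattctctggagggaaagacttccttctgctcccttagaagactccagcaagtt
Usp17ld: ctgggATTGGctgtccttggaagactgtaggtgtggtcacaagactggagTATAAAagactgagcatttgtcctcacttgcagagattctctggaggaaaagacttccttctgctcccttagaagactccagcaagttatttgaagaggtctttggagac

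TATAAA was found on the gene's strand in *Usp17lb*, *Usp17lc* and *Usp17ld*, and TTTAAA stood in the same place in *Usp17la*. The element began 46 bases before the annotated start in *Usp17la*, 31 in *Usp17lb*, 88 in *Usp17lc* and 110 in *Usp17ld*. In all 4 sequences an ATTGG began exactly 45 bases before it, while the annotated starts stood at different distances from it. Of 32851 RefSeq promoters of the same length, 8.32% held TATAAA and 13.2% held TTTAAA on the gene's strand, and 37.4% held CCAAT on either strand. The longest run of bases shared by all 4 windows was 29 bases long. It is shown because it was found in these 4 genes and in no other promoter of that table.
shared run: ctgagctgctttgcagaaaccacacccaa
TGCACAC was searched on both strands as a motif of the ZSCAN4 zinc fingers. It was in none of the 4 windows and in 4.40% of all promoters. These matches are descriptions of letters in a window.

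How far reads can be told apart between the genes depends on their exons, so a stretch of coding sequence is shown. The coding sequences of GENCODE vM21 were between 90.5% and 98.4% identical in 10 aligned pairs, with a median of 93.1%. *Usp17lc* and *Usp17ld* were the closest pair, at 98.4%, and *Usp17lb* and *Usp17le* the most distant. In the following 60 bases, capitals mark each base that differs from *Usp17la*. They lie on GRCm38 at chr7:104861533-104861592, plus strand, for *Usp17la*, chr7:104840319-104840378, minus strand, for *Usp17lb*, chr7:103418900-103418959, plus strand, for *Usp17lc*, chr7:103250264-103250323, minus strand, for *Usp17ld* and chr7:104768429-104768488, minus strand, for *Usp17le*.
Usp17la: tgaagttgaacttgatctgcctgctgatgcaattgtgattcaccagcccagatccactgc
Usp17lb: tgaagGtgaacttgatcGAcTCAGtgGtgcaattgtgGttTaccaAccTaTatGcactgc
Usp17lc: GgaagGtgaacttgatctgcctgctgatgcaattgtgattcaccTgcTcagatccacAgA
Usp17ld: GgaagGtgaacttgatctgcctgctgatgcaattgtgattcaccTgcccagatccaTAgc
Usp17le: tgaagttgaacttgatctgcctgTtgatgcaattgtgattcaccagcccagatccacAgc
Of these 60 positions, 20 varied among the genes. *Usp17lb* differed from *Usp17la* at 14 of them, *Usp17lc* at 6, *Usp17ld* at 5 and *Usp17le* at 2. The authors dropped reads that aligned to several places, so a read of 150 bases could be lost where its sequence occurs in more than 1 gene. Of the windows of 150 bases in the longest transcript, 29.4% in *Usp17lc* and 36.1% in *Usp17ld* were shared with another gene. The share was 1.28% in *Usp17la*, 2.27% in *Usp17lb* and 0.806% in *Usp17le*. All such partners were *Usp17l* genes or the pseudogene *Usp17le-ps*. Levels of *Usp17lc* and *Usp17ld* are therefore the most open to undercounting, while their ratios between libraries compare the same countable bases. Counting was also unstranded, so reads of an antisense transcript could not be told apart.

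The libraries held 31533129 to 35742335 counted reads each, with reads for 26123 to 26700 genes. The mitochondrial share was 8.44% for shScram+EV and 6.14% to 6.75% for the other libraries. For *Ythdf2* itself, 662 reads were counted in shYthdf2+EV, 2806 in shScram+EV, 6925 in shYthdf2+DF2Mut and 7661 in shYthdf2+DF2WT. The hairpin library thus had the lowest level and both rescue libraries the highest, and mutant and wild-type *Ythdf2* differed by a log2 ratio of -0.10 (95% interval -0.16 to -0.03). With no replicate library in any group, every difference is between single libraries. Intervals are 95% Clopper-Pearson intervals on read pairs, cover counting error only, and say nothing of the spread between cultures. No p-value was computed.

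All 5 *Usp17l* transcripts were about 3 times as abundant in shYthdf2+EV as in shScram+EV, returned close to the shScram+EV level with wild-type YTHDF2, and stayed high with the mutant. *Usp17la* had 1214 reads in shYthdf2+EV, 982 in shYthdf2+DF2Mut, 412 in shYthdf2+DF2WT and 357 in shScram+EV. *Usp17lb* had 1777, 1267, 636 and 502 reads, with the libraries in that order here and below. In both genes the shYthdf2+EV and shYthdf2+DF2Mut libraries were the high ones. *Usp17lc* had 962, 627, 315 and 298 reads. *Usp17ld*, the member with the fewest reads, had 550, 415, 179 and 173. *Usp17le*, the member with the most reads, had 2264, 1826, 728 and 609. The order of the libraries by scaled level was shYthdf2+EV, shYthdf2+DF2Mut, shYthdf2+DF2WT and shScram+EV in 4 of the genes. In *Usp17ld*, shYthdf2+DF2WT was at 99.3% of shScram+EV. Summed over the 5 genes, 6767, 5117, 2270 and 1939 reads were counted. After scaling by library size, the sum reached 307% of the shScram+EV value in shYthdf2+EV, 262% in shYthdf2+DF2Mut and 112% in shYthdf2+DF2WT. In bulk RNA, more cells in a 2C-like state and more RNA per such cell cannot be told apart.

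**Figure D1:**
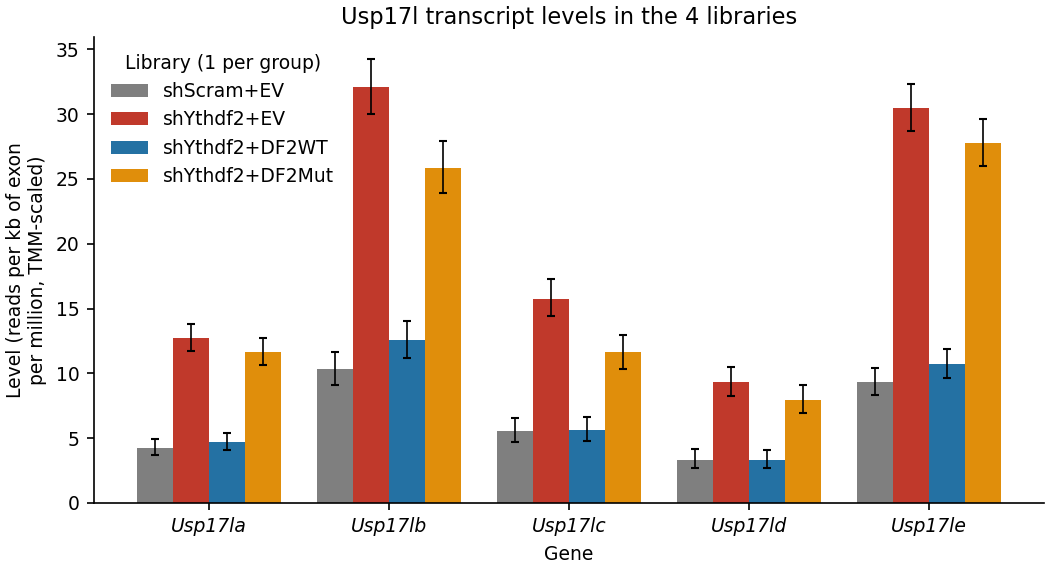
Bars give the level of each gene on the y axis, in RPKM (reads per kilobase of exon per 1000000 reads, scaled by TMM), in the 4 libraries (1 per group), and error bars give 95% exact Poisson intervals on read pairs. The shYthdf2+EV and shYthdf2+DF2Mut bars are the 2 taller bars for every gene, from 7.97 for *Usp17ld* in shYthdf2+DF2Mut to 32.1 for *Usp17lb* in shYthdf2+EV.

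The levels of the 5 genes were compared per kilobase of exon, in RPKM. Full exon lengths were used, although 29.4% of windows in *Usp17lc* and 36.1% in *Usp17ld* were shared with another gene. Reads lost there would make the RPKM of *Usp17lc* and *Usp17ld* too low. Their places in the order, and whether their intervals overlap those of other genes, are therefore uncertain. In shScram+EV, *Usp17lb* stood at 10.3 RPKM (95% exact Poisson interval 9.07 to 11.7) and *Usp17le* at 9.33 (8.31 to 10.4). *Usp17lc* followed at 5.56 (4.70 to 6.53), *Usp17la* at 4.27 (3.66 to 4.94) and *Usp17ld* at 3.34 (2.68 to 4.13). The intervals of *Usp17lb* and *Usp17le* overlapped, as did those of *Usp17lc* and *Usp17la* and those of *Usp17la* and *Usp17ld*. In shYthdf2+EV the order was the same, from *Usp17lb* at 32.1 RPKM (30.0 to 34.3) and *Usp17le* at 30.5 (28.7 to 32.3) down to *Usp17ld* at 9.34 (8.27 to 10.5). Between these stood *Usp17lc* at 15.8 (14.4 to 17.2) and *Usp17la* at 12.8 (11.8 to 13.8), which did not overlap each other or their other neighbours. In shYthdf2+DF2WT the order was again the same, from 12.5 RPKM for *Usp17lb* to 3.32 for *Usp17ld*. In shYthdf2+DF2Mut, *Usp17le* at 27.8 RPKM (26.0 to 29.6) and *Usp17lb* at 25.9 (23.9 to 27.9) had overlapping intervals, and *Usp17la* and *Usp17lc* were level at 11.7 and 11.6. By rank of reads among all gene rows, *Usp17le* moved from 7776 in shScram+EV to 3729 in shYthdf2+EV, and *Usp17ld* from 10938 to 8471.

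The share of the family's reads that each gene took changed little. *Usp17le* took between 31.4% and 35.7% of the reads of the 5 genes, *Usp17lb* between 24.8% and 28.0%, *Usp17la* between 17.9% and 19.2% and *Usp17ld* between 7.89% and 8.92%. The share of *Usp17lc* was 12.3% in shYthdf2+DF2Mut (95% Wilson interval 11.0 to 13.6), 13.9% in shYthdf2+DF2WT (12.0 to 16.0), 14.2% in shYthdf2+EV (13.1 to 15.4) and 15.4% in shScram+EV (13.2 to 17.8). Its lowest share was thus in the mutant library, where its interval still overlapped those of the other 3 libraries.

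Knockdown of *Ythdf2* was addressed by shYthdf2+EV against shScram+EV. All 5 genes were at least 2-fold higher, where 7.10% of the 18586 genes tested were, and 0 were at least 2-fold lower, where 5.70% were. The log2 ratio was 1.58 for *Usp17la* (1.34 to 1.83), 1.64 for *Usp17lb* (1.43 to 1.85), 1.503 for *Usp17lc* (1.24 to 1.78), 1.48 for *Usp17ld* (1.13 to 1.85) and 1.71 for *Usp17le* (1.52 to 1.90). Every interval lay above a log2 ratio of 1. The summed reads gave 1.62 (1.51 to 1.72), a fold of 3.07. Between 490 and 687 of the tested genes had a higher ratio than a given *Usp17l* gene, and the median of all tested genes was -0.0015. In none of the 10 pairs of genes did the ratios differ beyond counting error, by a normal interval on the difference. The widest difference was between *Usp17ld* and *Usp17le*, at -0.23 (-0.62 to 0.17).

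Wild-type YTHDF2 was compared with the empty vector in the knockdown cells, a comparison that shares the shYthdf2+EV library with the one before. All 5 genes were at least 2-fold lower in shYthdf2+DF2WT, where 5.61% of the tested genes were, and 0 were at least 2-fold higher, where 5.15% were. The log2 ratio was -1.43 for *Usp17la* (-1.67 to -1.20), -1.35 for *Usp17lb* (-1.54 to -1.17), -1.48 for *Usp17lc* (-1.75 to -1.22), -1.49 for *Usp17ld* (-1.85 to -1.14) and -1.51 for *Usp17le* (-1.68 to -1.34). The sum gave -1.45 (-1.55 to -1.35). In 0 of 10 pairs did the genes differ from each other beyond counting error.

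Against shScram+EV, the wild-type rescue library left 0 of the 5 genes at least 2-fold higher or lower, where 3.79% and 3.05% of the tested genes were. *Usp17lb* was above shScram+EV by a log2 ratio of 0.28 (0.04 to 0.53), and the intervals of the other 4 genes included 0. Those 4 ratios were 0.15 for *Usp17la*, 0.02 for *Usp17lc*, -0.01 for *Usp17ld* and 0.20 for *Usp17le*. The sum was higher by 0.17 (0.04 to 0.29).

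The mutant was compared with the empty vector in the same way. In shYthdf2+DF2Mut, 0 of the 5 stood 2-fold or more below shYthdf2+EV, where 3.39% of the tested genes were, and 0 were at least 2-fold higher, where 2.65% were. The ratios lay between -0.44 and -0.13. The intervals of *Usp17la* (-0.13, -0.30 to 0.04) and *Usp17ld* (-0.23, -0.50 to 0.04) included 0. Those of *Usp17lb* (-0.31, -0.46 to -0.16), *Usp17lc* (-0.44, -0.65 to -0.23) and *Usp17le* (-0.13, -0.26 to -0.0066) did not, and the sum stood at -0.23 (-0.30 to -0.15). In 2 of 10 pairs the genes differed beyond counting error. *Usp17lc* was lower than *Usp17la* by a difference in log2 ratio of 0.31 (0.04 to 0.58), and lower than *Usp17le*, at -0.31 (-0.55 to -0.07). These intervals are not adjusted for the number of pairs.

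The mutant against wild-type rescue is the comparison between proteins that differ in m6A binding, and it shares no library with the knockdown comparison. All 5 genes were at least 2-fold higher in shYthdf2+DF2Mut, where 5.39% of the tested genes were, and 0 were at least 2-fold lower, where 6.21% were. The log2 ratio was 1.30 for *Usp17la* (1.06 to 1.54), 1.04 for *Usp17lb* (0.85 to 1.24), 1.04 for *Usp17lc* (0.76 to 1.33), 1.26 for *Usp17ld* (0.90 to 1.64) and 1.38 for *Usp17le* (1.20 to 1.56). *Usp17lb* and *Usp17lc* lay just inside the 2-fold threshold. The intervals of *Usp17lb*, *Usp17lc* and *Usp17ld* reached below it, and all 5 intervals lay above 0. The sum gave 1.22 (1.12 to 1.32), a fold of 2.33. In 2 of 10 pairs the genes differed beyond counting error, *Usp17lb* from *Usp17le* by -0.33 (-0.59 to -0.07) and *Usp17lc* from *Usp17le* by -0.33 (-0.66 to -0.0070). Across all tested genes with a transcript of known composition, this log2 ratio varied with GC content (Spearman's rho -0.39 across 16726 genes, which are not independent replicates). The transcripts of the *Usp17l* genes had between 47.4% and 51.0% GC, and 6787 genes within 2 percentage points of that range had a median log2 ratio of 0.01. For the wild-type rescue library, rho with GC content was 0.34 against shYthdf2+EV and 0.35 against shScram+EV. For the mutant library it was -0.16 against shYthdf2+EV and -0.17 against shScram+EV, and for knockdown it was -0.06.

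**Figure D2:**
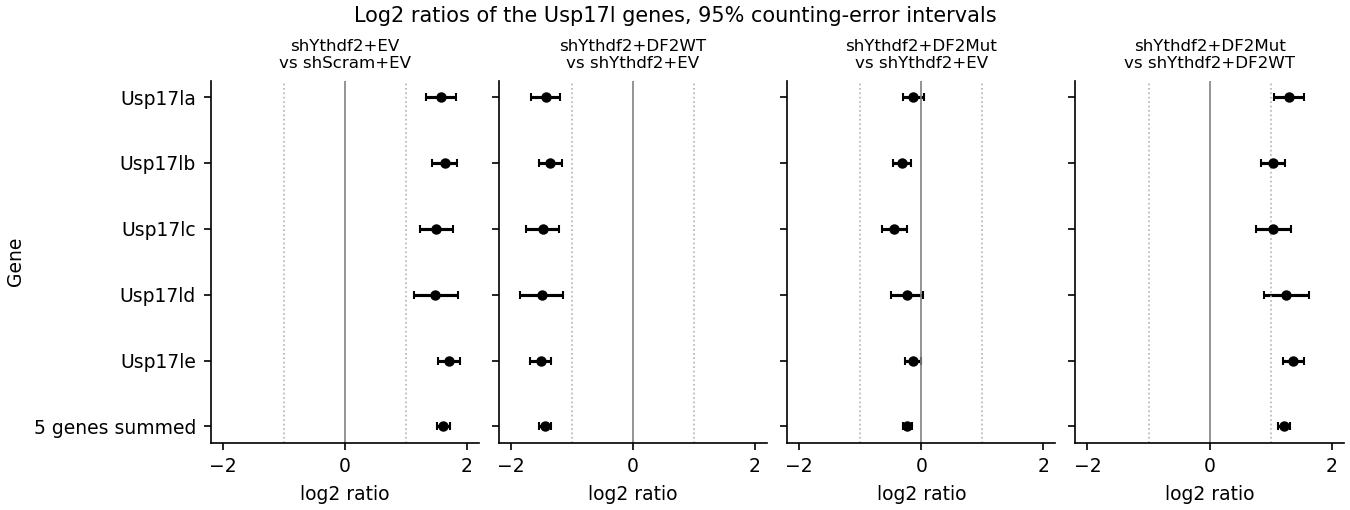
Points give the log2 ratio (x axis) of each gene and of the 5 genes summed (y axis) in 4 comparisons, bars give 95% counting-error intervals, and dotted lines mark 2-fold. The points lie between 1.48 and 1.71 for knockdown, between -1.51 and -1.35 for wild-type rescue, between -0.44 and -0.13 for mutant rescue, and between 1.04 and 1.38 for mutant against wild type.

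The genes also divide by position, into *Usp17lc* with *Usp17ld* and *Usp17la* with *Usp17lb* and *Usp17le*. On knockdown, the summed log2 ratio was 1.496 for the pair and 1.65 for the trio, a difference of 0.16 (-0.08 to 0.40). With the mutant against the empty vector it was -0.36 for the pair and -0.19 for the trio, a difference of 0.17 (-0.01 to 0.35). Only in the mutant library against shScram+EV, at 1.14 and 1.46, did the interval of the difference lie above 0 (0.33, 0.07 to 0.58), among the 6 pairs of libraries. The split by position was chosen with the ratios known.

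The genes around the family were almost silent. Of 86 other gene rows within 250 kb of a *Usp17l* gene, 78 had 0 reads in all 4 libraries. Olfactory receptor genes and pseudogenes, which encode odorant receptors of the nose, made up 73 of the 86, and 68 of these had 0 reads. The highest count of an olfactory receptor row in any library was 6. At these depths, a floor of 3 reads corresponds to between 0.0835 and 0.0950 CPM (counts per 1000000 reads, scaled). That floor was set in reads and not in read pairs, so a count of 0 can allow a higher level. Only *Gm5900* and *Gm6593* passed the minimum. *Gm5900* had 259, 222, 145 and 210 reads, and its log2 ratio on knockdown was 0.12. *Gm6593* had 8, 32, 13 and 22 reads, with its lowest count in the library where the *Usp17l* genes were highest. The pseudogene row *Usp17le-ps* had 0 reads in every library.

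**Figure D3:**
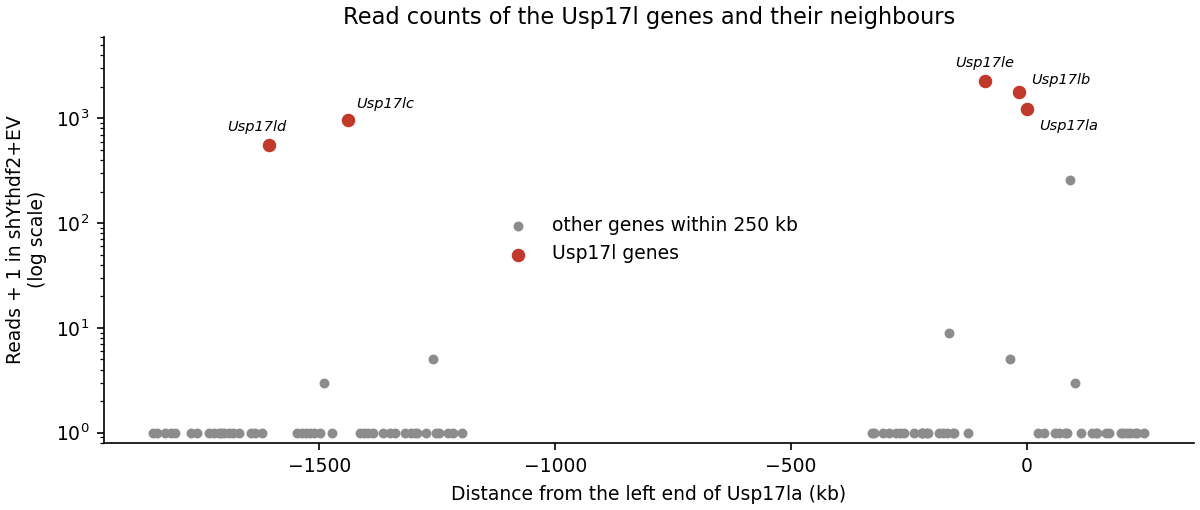
Each point is a gene row on chromosome 7, with its distance from the left end of *Usp17la* in kilobases on the x axis and its reads plus 1 in the shYthdf2+EV library on a log y axis. The 5 *Usp17l* genes stand at 550 to 2264 reads, while the highest of the 86 other rows within 250 kb, *Gm5900*, stands at 259.

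Other deubiquitinases gave no such values. The 52 other rows with a *Usp* symbol and a number were taken by symbol alone, and not all, such as *Usp6nl*, need encode a deubiquitinase. Of these 52 rows, 1 of them an antisense RNA, 49 were tested, and 0 were at least 2-fold higher or lower on knockdown. Their log2 ratios lay between -0.81 and 0.35, with a median of -0.08. The lowest was *Usp35*, with 352, 323, 650 and 543 reads. *Usp43* (-0.74), *Usp28* (-0.72) and *Usp49* (-0.60) followed it. With wild-type YTHDF2 against the empty vector, 1 of 49 was at least 2-fold higher, *Usp35* at 1.01. With the mutant against wild type, 1 was at least 2-fold lower, *Usp2*, at -1.0008. Of 34 genes of other deubiquitinase families, the ubiquitin C-terminal hydrolases, ovarian tumour proteases and others, all were tested. None was at least 2-fold changed on knockdown, with log2 ratios from -0.86 to 0.48, and 1, *Mindy4*, was at least 2-fold lower with the mutant than with wild type (-1.06). *Usp2*, *Usp35* and *Mindy4* were singled out after their values were seen.

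**Figure D4:**
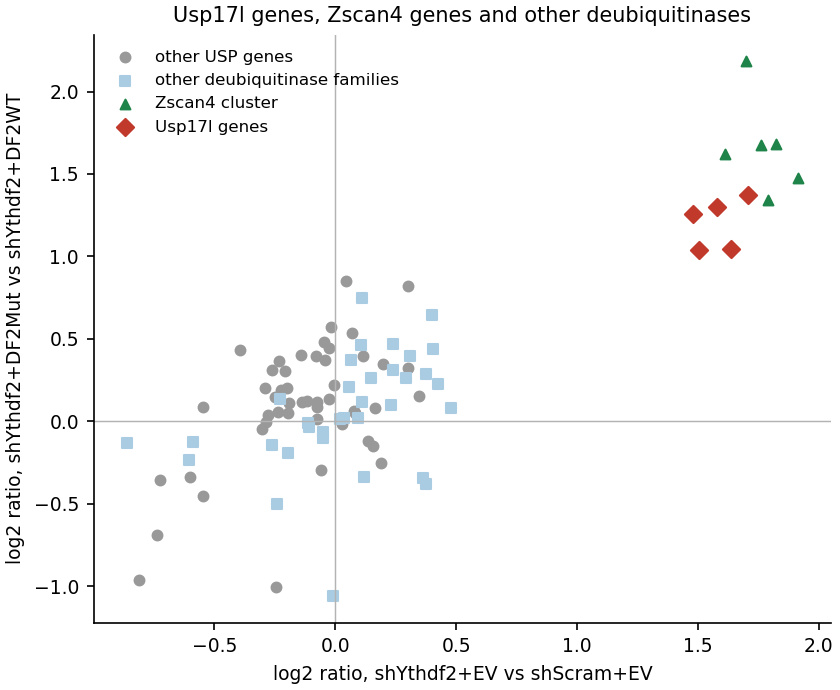
Each point is a tested gene, with its log2 ratio on knockdown on the x axis and its log2 ratio of mutant against wild-type rescue on the y axis, 2 comparisons that share no library. The *Usp17l* genes lie between 1.48 and 1.71 on the x axis and the other *Usp* genes between -0.81 and 0.35.

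The *Zscan4* genes encode zinc finger proteins linked to telomere maintenance in ESCs and lie on the same chromosome. All 6 tested *Zscan4* genes were at least 2-fold higher on knockdown, with log2 ratios from 1.61 to 1.91. *Zscan4d* had 6266 reads in shYthdf2+EV, 4814 in shYthdf2+DF2Mut, 1792 in shYthdf2+DF2WT and 1463 in shScram+EV. The summed *Zscan4* reads gave 1.77 on knockdown, and the *Usp17l* sum was lower by a difference of -0.15 (-0.27 to -0.03). With wild-type YTHDF2 against the empty vector the *Zscan4* sum gave -1.68, and the *Usp17l* sum fell short of that by 0.23 (0.12 to 0.35). With mutant against wild type the *Zscan4* sum gave 1.58, and the *Usp17l* sum was lower by a difference of -0.36 (-0.48 to -0.24). These 3 comparisons are not independent, as shYthdf2+EV is in the first 2 and shYthdf2+DF2WT in the last 2. Single genes overlapped between the families, as on knockdown, with *Usp17le* at 1.71 and *Zscan4a* at 1.61. In each of the 3 the *Usp17l* sum moved in the same direction as the *Zscan4* sum by less, beyond counting error. With the mutant against the empty vector it moved by more, with -0.23 for the *Usp17l* sum and -0.10 for the *Zscan4* sum, a difference of -0.12 (-0.21 to -0.04). Against shScram+EV, the 2 sums in the wild-type rescue library differed by 0.08 (-0.07 to 0.23).

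Further 2C genes outside the *Zscan4* cluster were compared. Of 9 *Tdpoz* and *Tcstv* genes, 7 were matched and 4 tested, and all 4 were at least 2-fold higher on knockdown. With mutant against wild type, 1 of the 4 was at least 2-fold higher, where 5.39% of the tested genes were, and the median was 0.79. With the mutant against the empty vector, 1 of the 4, *Tcstv1*, was at least 2-fold lower, where 3.39% were. *Tcstv1* had 43 reads in shYthdf2+EV, 9 in shYthdf2+DF2Mut, 13 in shYthdf2+DF2WT and 1 in shScram+EV. The sum of the 7 matched genes gave a log2 ratio of 1.94 on knockdown, from which the *Usp17l* sum differed by -0.32 (-0.64 to 0.0015). Of 6 other 2C genes, 4 were at least 2-fold higher on knockdown and 0 lower. The 4 were *Spz1* (2.99), *Tmem92* (2.48), *Arg2* (2.44) and *Zfp352* (1.76). *Sp110* was at 0.41 (-0.35 to 1.19). *Patl2*, named with *Sp110* after their values were seen, went the other way, at -0.84 (-1.26 to -0.42) on knockdown and 0.61 (0.19 to 1.05) with wild-type YTHDF2 against the empty vector. The sum of all 6 gave 1.73, where *Patl2* held 250 of the 721 reads in shScram+EV, and the median of the 6 genes was 2.10. The difference of the *Usp17l* sum from the sum of all 6 was -0.12 (-0.31 to 0.08). With mutant against wild type that difference was -0.02 (-0.20 to 0.17).

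The patterns most like that of *Usp17le* were sought among 12287 genes with a mean of at least 100 reads, by Euclidean distance over the 3 log2 ratios to shScram+EV. These 3 ratios share their denominator, and 4 libraries give few points. The nearest was *Zscan4c*, at a distance of 0.09, with 3279, 2503, 1023 and 834 reads. It was followed by *Fst*, which encodes the activin antagonist follistatin (0.11), and by *Zscan4-ps2* (0.15). *Gm4971*, *Gm5939*, *Gm36718*, *LOC118568477*, *Gm21037* and *Crmp1* were also among the nearest, up to a distance of 0.19. Of the family, *Usp17la* lay at 0.19, *Usp17lb* at 0.27, *Usp17ld* at 0.45 and *Usp17lc* at 0.58, and all the genes just named except *Crmp1* were nearer to *Usp17le* than *Usp17la* was.

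Proteins reported as substrates of USP17 enzymes were examined at the level of their transcripts. Of 12 listed genes, 11 were matched and 9 tested, and 1 was at least 2-fold higher on knockdown and 0 lower. This was *Has2*, a hyaluronan synthase, which had 52 reads in shYthdf2+EV, 32 in shYthdf2+DF2Mut, 2 in shYthdf2+DF2WT and 4 in shScram+EV, a log2 ratio of 3.37 (1.52 to 6.63) on knockdown. The others included *Ccna2*, a cyclin of S phase and mitosis (-0.25), *Snai1*, a repressor of E-cadherin (0.24), and *Cdt1*, a licensing factor of DNA replication (-0.17). The median of the 9 was -0.06. *H2ax* was listed at 0 in all libraries. Reads that aligned to several places or overlapped several genes were not counted, so this 0 does not show that *H2ax* was silent.

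The interleukin route through which the first family members were induced in blood cells was examined in the same way. Of 12 receptor subunits, kinases and STAT factors, 8 were tested, and 4 receptor chains had at most 4 reads in any library, *Csf2rb* with 0 in all. On knockdown 1 of 8 was at least 2-fold higher, *Csf2ra*, a receptor chain for GM-CSF, at 1.02 (0.64 to 1.41), and 0 were lower. *Csf2ra* had 385, 231, 274 and 167 reads, and its log2 ratio of mutant against wild type was -0.20 (-0.57 to 0.17), where the *Usp17l* sum was at 1.22. *Stat5b* (-0.36), *Stat5a* (-0.19) and *Il3ra* (-0.15) were the next largest.

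Sequence around possible m6A sites was described because the mutant differs from wild type in m6A binding. GGAC, a core of the m6A consensus, was counted on the sense strand of the longest transcript, and these data do not measure m6A. There were 8 in *Usp17la*, 6 in *Usp17lb*, 10 in *Usp17lc*, 11 in *Usp17ld* and 5 in *Usp17le*, or between 2.65 and 5.54 per kilobase. The median of 16726 tested genes was 4.04 per kilobase, with quartiles of 2.90 and 5.37. GGACT was in none of the 5 transcripts. It was absent from 11.5% of the transcripts of all those genes, and from 10.7% of 3977 genes with transcripts of 1500 to 2700 bases. The GGAC copies in the family were followed by A or C, as in *Usp17le*, with 3 GGACA and 2 GGACC.

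Markers of the labelled cell type and of others were summed in CPM. The 8 pluripotent cell markers, *Pou5f1*, *Nanog* and *Sox2* among them, were all detected and summed to between 4957 and 5378 in the 4 libraries. The 7 trophectoderm markers summed to 101 in shYthdf2+EV, 105 in shYthdf2+DF2Mut, 137 in shYthdf2+DF2WT and 144 in shScram+EV, lower in both libraries where the *Usp17l* genes were higher, and none was at 0 in all. On knockdown 2 of these 7 were at least 2-fold lower, where 5.70% of the tested genes were, and 0 higher. They were *Krt8*, at -1.05 (-1.24 to -0.85), and *Elf5*, at -1.86 with an interval that included 0 (-5.30 to 0.40). *Elf5* had 4 reads in shYthdf2+EV and 14 in shScram+EV. The 8 primitive endoderm markers summed to 109, 108, 93.1 and 84.2. Of these, 2 of the 7 tested were at least 2-fold higher on knockdown, where 7.10% of the tested genes were. They were *Dab2*, at 1.07 (0.58 to 1.58), and *Sox7*, at 1.57 with an interval that included 0 (-0.05 to 3.68). *Sox7* had 28 reads in shYthdf2+EV and 8 in shScram+EV. The 7 fibroblast markers summed to between 10.9 and 16.5, with *Dcn* and *Lum* at 0 in all libraries, and the 8 blood cell markers to between 9.71 and 12.0. The part of these cells in the *Usp17l* differences was not tested.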

How the data were processed

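Counts of reads per gene were deposited by the authors as 1 table with 1 column per library. Per the file headers, featureCounts 2.0.3 was run by the authors at exons of the UCSC mm39 RefSeq annotation, unstranded, without reads that aligned to several places or overlapped several genes. Both mates of a pair were counted, so intervals used reads divided by 2. The deposited table also gives the summed exon length of each gene, taken as other information for levels per kilobase. The submitters' processing notes name fastp 0.19.4, HISAT2 2.2.1, DESeq2 1.40.2 and the build mm10, which differs from the mm39 of the header. Coordinates of genes are those of the table, and printed sequences are on GRCm38. The study's methods describe biological replicates, but the labels give 1 library per group.

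From the counts, TMM factors (edgeR 4.0.16 in R 4.3.3, genes with a mean of at least 10 reads) were 0.976 for shScram+EV and 1.01 for each of the other libraries. Log2 ratios used a prior of 0.5 reads, adjusted to each library's size. The 18586 genes with a mean of at least 10 reads were tested against a 2-fold threshold, with no p-value. Differences between ratios have normal 95% intervals on read pairs. Amplified reads are not independent molecules, so all intervals cover counting error only. The ratio and its interval were tested on simulated data. Sequences were aligned with MAFFT 7.526.

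The genes, lists and rules were chosen with earlier results of these data known. Named genes were all members, *Ythdf2*, up to 4 genes of each list by absolute knockdown ratio, the 10 patterns nearest to *Usp17le* (1 of which is not reported here), and tested genes within 250 kb. *Rigi*, *Tcstv2* and *Tcstv4* had no matching row. Alternatives were DESeq2 1.42.0 size factors, total counts with and without mitochondrial genes, upper-quartile scaling, a prior count of 5, other minimum counts and folds, sums without *Usp17la* or per kilobase, and, added after seeing the data, a comparison by GC content.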

Additional observations from a re-analysis of the deposited data

How the results depend on the processing

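The summed log2 ratio of the *Usp17l* genes kept its direction and stayed within its counting interval in all 35 alternatives over 5 comparisons, and the ratios of single genes stayed within theirs in all 125. The sign turned for *Usp17ld* in shYthdf2+DF2WT against shScram+EV, from -0.0097 to 0.040 with total counts and 0.0075 with total counts without mitochondrial genes, and for no other single gene. The number of *Usp17l* genes past the threshold was the same in all 90 alternatives, and *Usp17lb* and *Usp17lc* came nearest to the threshold for mutant against wild type, at log2 ratios of 1.014 and 1.013 under upper-quartile scaling. The share that each gene takes of the family's reads moved beyond its interval in 16 of 20 cases when reads were taken per kilobase, since exon lengths differ. The share of all tested genes past the threshold moved by over 1.5 times in all 30 alternatives, which by construction admit more or fewer genes. With a minimum mean of 1 read, the genes past the threshold upward and downward were 14.9% and 13.0% for shYthdf2+EV against shScram+EV, 12.1% and 13.5% for shYthdf2+DF2WT against shYthdf2+EV, 9.98% and 11.4% for shYthdf2+DF2Mut against shYthdf2+EV, 12.6% and 13.3% for shYthdf2+DF2Mut against shYthdf2+DF2WT and 11.3% and 10.6% for shYthdf2+DF2WT against shScram+EV. With a minimum mean of 50 reads, the genes past the threshold upward and downward were 3.55% and 2.42% for shYthdf2+EV against shScram+EV, 2.02% and 2.37% for shYthdf2+DF2WT against shYthdf2+EV, 0.300% and 0.543% for shYthdf2+DF2Mut against shYthdf2+EV, 2.29% and 2.80% for shYthdf2+DF2Mut against shYthdf2+DF2WT and 0.779% and 0.307% for shYthdf2+DF2WT against shScram+EV. With a 1.5-fold threshold, the genes past the threshold upward and downward were 13.8% and 12.9% for shYthdf2+EV against shScram+EV, 12.2% and 11.1% for shYthdf2+DF2WT against shYthdf2+EV, 6.51% and 8.82% for shYthdf2+DF2Mut against shYthdf2+EV, 12.2% and 14.9% for shYthdf2+DF2Mut against shYthdf2+DF2WT and 9.25% and 7.10% for shYthdf2+DF2WT against shScram+EV. No paired analysis was possible because each group held 1 library. For the same reason no replicate could be left out. Depth limits *Usp17ld* most, at 173 to 550 reads. For genes at 0, the floor of 3 reads was set in reads and not in read pairs, so it may be too low.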
